A study of Mus musculus with 6 samples.

Results

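The Zfp genes examined here encode zinc finger proteins that carry the mouse prefix Zfp and a number. They are the protein-coding genes with such a name, chosen by a mean count that reached 100 over the 6 libraries, leaving out Zfp36 and Zfp521. The rule found 190 members among 53465 genes in the table, and among 365 protein-coding Zfp genes, of which 11 had 0 counts in every library. The mean count over both groups thus selected the members, so their general level is a property of the choice, and the difference between the groups was not used. A search for the C2H2 finger pattern in the translated coding sequences found at least 1 finger in 187 members and none in Zfp703, Zfp330 and Zfp839.

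The mice were wild type and all had received 5.0 Gy of total-body irradiation. They were then given saline (3 libraries) or carnosine (3 libraries), a dipeptide of beta-alanine and histidine. The cells were long-term hematopoietic stem cells (LT-HSCs) of the bone marrow, sorted as lineage-, Sca-1+, c-Kit+, Flk2- and CD34-. An unirradiated group was not analysed here, and the labels used here give no strain, age, carnosine dose or interval, nor whether each library is 1 mouse or a pool. The p-values therefore measure only how these libraries vary, and part of that variation may be technical.

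In a C2H2 finger, a zinc ion held by paired cysteines and histidines folds a short loop that reads a few bases of DNA, and fingers in a row read a longer site. Many of these proteins also carry a KRAB box, which recruits the co-repressor TRIM28 (KAP1) and, through it, the histone H3 lysine 9 methyltransferase SETDB1 and HP1 proteins. KRAB zinc finger genes have multiplied by local duplication, so they lie in chromosome clusters, and many of their proteins silence transposable elements. Members without a KRAB box have varied roles, from promoter binding to ribosome assembly.

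The libraries held 12602067 to 16866534 counted reads with saline and 12730837 to 13651553 with carnosine. Mitochondrial genes took 5.14% to 5.17% of reads with saline and 4.62% to 4.65% with carnosine. The summed CPM (counts scaled to library size) of 5 myeloid progenitor markers (Mpo, Elane, Ctsg, Prtn3 and Ms4a3) were 3735 to 3761 with saline and 7720 to 7972 with carnosine, and all 5 rose. The 5 megakaryocyte markers summed to 333 to 360 CPM with saline and 135 to 143 CPM with carnosine, and the 4 tested fell. Markers of other blood lineages thus moved in both directions. The 4 monocyte and macrophage markers summed to 112 to 122 and 67.1 to 72.1 CPM, with 3 lower. The 5 B and plasma cell markers summed to 1015 to 1063 and 584 to 884 CPM, with 1 lower, and the 3 T cell markers to 0.650 to 1.17 and 3.17 to 4.17 CPM, with both tested genes higher. The 5 erythroid markers summed to 511 to 521 and 635 to 661 CPM, with 3 higher and 1 lower. The markers of the sorted cell type itself were present in all libraries. The 8 LT-HSC markers summed to 438 to 447 and 457 to 473 CPM, most of it from Kit, with 1 of 7 tested higher and 3 lower. Kit was the 1 that rose (log2 fold change 0.20), so the sum does not show the other markers. Mecom (-1.01), Slamf1 (-0.93) and Fgd5 (-0.90) fell, and Ly6a, Hlf and Procr did not pass. The T cell genes Cd3e and Cd3g were at 0 in at least 1 library, and none of the listed markers was at 0 in every library of a group. The part of these shifts in the results on the Zfp genes was not tested, and in bulk RNA fewer cells of a type cannot be told apart from less RNA per cell.

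More Zfp genes rose than fell with carnosine. All 190 members passed the filter on low counts. In edgeR's quasi-likelihood test with Benjamini-Hochberg adjustment over all 15533 tested genes, 53 members were higher with carnosine (27.9%), 24 were lower (12.6%) and 113 did not pass at an adjusted p of 0.05. Over all tested genes 39.4% were called, 19.6% higher and 19.8% lower. On deposited FPKM values (log2 of FPKM + 1, tested with limma) the calls over all genes were 3387 higher and 2156 lower, and those over the members 54 higher and 18 lower. Among the 9661 protein-coding genes that reached the same mean count, 23.3% were higher and 20.9% lower. The share of members called higher was thus somewhat above that of genes of like count, and the share called lower was below it. The members' median log2 fold change was 0.10 (interquartile range -0.09 to 0.36), beside 0.02 for the protein-coding genes of the same mean count.

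The changes were small for most of the called genes. Their median absolute log2 fold change was 0.42, and 51 of the 77 called members changed by less than 0.5. The log2 fold changes of all 190 members ran from -0.64 to 2.0. An absolute value of 1 was reached by 4 members, of which Zfp12 (1.08) was not called. Of the 190 members, 68 were higher with carnosine with no overlap between the libraries of the groups, and 39 were lower. Among the 9661 protein-coding genes of the same mean count these counts were 2938 (30.4%) and 2546 (26.4%). Over all tested genes the shares were 26.2% and 26.1%. Summed over the members, the level was 6841, 6791 and 6802 CPM with saline and 6962, 6890 and 7008 CPM with carnosine, so the family's total was slightly higher in each carnosine library.

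**Figure D1:**
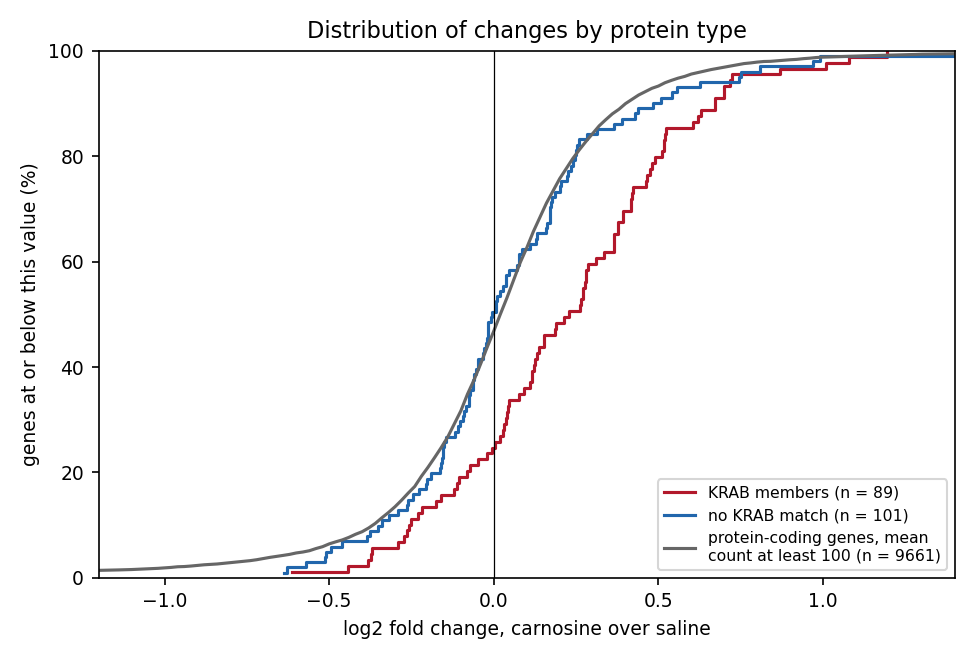
Cumulative share of genes (y axis, percent) at or below each log2 fold change of carnosine over saline (x axis) for the 89 KRAB members, the 101 members with no KRAB match and the 9661 protein-coding genes whose mean count reached 100. The curve of the KRAB members lies to the right of the other curves through most of its range, with a median of 0.23 against -0.01 and 0.02. The x axis ends at 1.4, so genes beyond it, Zfp366 among them, are not drawn.

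Most of the members that rose carry a KRAB box, 36 of 53. A KRAB A box was found in the translated coding sequence of 89 members, as a match to an 11-residue pattern with at most 3 mismatches. Of the 89, 36 rose (40.4%), 8 fell (8.99%) and 45 did not pass, with a median log2 fold change of 0.23. In settings that were not planned, at most 2 mismatches gave 35 higher and 6 lower, and at most 4 gave 36 and 9. A KRAB box that departs further from the pattern is counted as no match. Of the 101 members with no match, 17 rose (16.8%), 16 fell (15.8%) and 68 did not pass, with a median of -0.01. On FPKM values the latter class split into 20 higher and 13 lower with a pseudocount of 1, and 21 and 13 with a pseudocount of 0.1. The difference between the classes was not itself tested. DESeq2's Wald test made fewer calls throughout, with 2149 genes higher and 2301 lower over all tested. It called 27 KRAB members higher and 5 lower, and 10 members with no match higher and 12 lower.

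Summed in CPM, the levels show the same split library by library. KRAB members together had 1626, 1682 and 1717 CPM with saline and 1871, 1849 and 1906 CPM with carnosine, with no overlap between the groups. Members with no match had 5214, 5109 and 5085 CPM with saline and 5091, 5041 and 5103 CPM with carnosine, and these groups overlapped. In summed FPKM neither class overlapped. Members with no match had 643, 640 and 624 FPKM with saline and 647, 645 and 657 FPKM with carnosine. KRAB members had 269, 276 and 277 FPKM with saline and 314, 307 and 313 FPKM with carnosine. Other C2H2 families at the same mean count gave further values. Of 32 Zbtb genes, whose proteins join fingers to a BTB domain, 5 rose and 8 fell, with a median of -0.08. Of 14 Zkscan and Zscan genes, whose proteins carry a SCAN domain, 5 rose (35.7%) and 1 fell (7.14%), with a median of 0.11. Over the KRAB members these shares were 40.4% and 8.99%. The 14 genes were not sorted by KRAB box here, so they do not serve as a class without one.

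The protein classes also differed in base composition and level. KRAB members had a median transcript GC content of 40.5%, a median of 11 fingers and a median level of 2.42 FPKM, the deposited unit that scales a count by transcript length and library size. Members with no match had 51.0% GC, 7 fingers and 4.10 FPKM. Protein-coding genes of the same mean count whose GC content lay in the middle 50% of the KRAB range numbered 2200, and 26.7% of them were higher and 16.8% lower. With GC content and transcript length corrected in each library, an alternative chosen after the data were seen, 32 KRAB members were higher and 11 lower, and 21 members with no match were higher and 18 lower.

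Zfp953, a KRAB member on chromosome 13, had 6.0, 6.04 and 5.20 CPM with saline and 12.2, 10.0 and 12.7 CPM with carnosine. Every carnosine library lay well above every saline library. Its log2 fold change was 1.0 ± 0.12 (SE, n = 3 and 3 libraries), with an adjusted p of 0.00071 in edgeR's quasi-likelihood test with Benjamini-Hochberg adjustment. Zfp930, a KRAB member on chromosome 8, had 6.49, 6.56 and 6.09 CPM with saline and 11.9, 11.7 and 11.5 CPM with carnosine. The libraries of each group lay close together, and the log2 fold change was 0.87 ± 0.08 (adjusted p = 0.00021, same edgeR test). Zfp39, a KRAB member on chromosome 11, went from 10.9, 11.8 and 11.9 CPM to 18.7, 18.7 and 17.6 CPM, also with no overlap. Its log2 fold change was 0.67 ± 0.07. Zfp111 had 8.36, 7.40 and 7.47 CPM with saline and 14.6, 12.1 and 11.7 CPM with carnosine, a log2 fold change of 0.72 ± 0.11. Zfp738 (0.70 ± 0.09), Zfp810 (0.67 ± 0.12) and Zfp846 (0.60 ± 0.10) rose by similar amounts, each with no overlap between the groups. Zfp971 (0.70) and Zfp59 (0.62) rose as well, but 42.4% and 52.4% of the 50-base words of their transcripts also occur in other genes, so reads may have been split between copies.

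Among the 8 KRAB members that fell, Zfp472 had the largest change. It had 18.2, 18.8 and 16.1 CPM with saline and 11.4, 11.7 and 11.7 CPM with carnosine. All 3 carnosine libraries lay under the lowest saline library, with a log2 fold change of -0.61 ± 0.08. Zfp868 (-0.44), Zfp942 (-0.38), Zfp871 (-0.37) and Zfp954 (-0.37) followed. The call on Zfp954 was the least firm of these: its adjusted p was 0.0487 in edgeR's quasi-likelihood test with Benjamini-Hochberg adjustment, and 10 of 15 alternative settings lost it. Leaving out any library but saline replicate 1 gave Zfp954 an adjusted p of 0.056 to 0.14 in the same edgeR test.

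The promoters of 6 members with large changes, 3 that rose and 3 that fell, are shown to set the sequences at their start sites side by side. They are the RefSeq sequences of build GRCm38.p6 from 250 bases before to 50 bases after the gene's start, 5′ to 3′ on the gene's strand. Capitals mark matches, on either strand, to the motifs searched. Zfp953 (chr13:67360523-67360822, minus strand) holds a cyclic AMP response element, TGACGTCA. Zfp629 (chr7:127615223-127615522, minus strand, 1 of 3 promoters listed) holds none of the motifs. Zfp111 (chr7:24208100-24208399, minus strand, 1 of 2 promoters listed) holds ACTACAATT, a part of the site that Zfp143 is known to bind. Only this exact run was searched, so variants of the site in any of the 6 promoters are not marked. Zfp281 (chr1:136624651-136624950, plus strand) holds GC boxes (GGGCGG) and a CCAAT box, and Zfp622 (chr15:25984116-25984415, plus strand) holds a GC box. Zfp472 (chr17:32965581-32965880, plus strand) holds a CCAAT box.
Zfp953: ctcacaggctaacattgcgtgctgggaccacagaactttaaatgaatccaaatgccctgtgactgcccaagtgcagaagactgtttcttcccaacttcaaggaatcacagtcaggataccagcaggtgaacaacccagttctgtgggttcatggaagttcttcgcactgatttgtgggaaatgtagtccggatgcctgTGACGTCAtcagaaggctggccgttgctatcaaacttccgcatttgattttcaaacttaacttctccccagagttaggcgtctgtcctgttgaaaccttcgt
Zfp629: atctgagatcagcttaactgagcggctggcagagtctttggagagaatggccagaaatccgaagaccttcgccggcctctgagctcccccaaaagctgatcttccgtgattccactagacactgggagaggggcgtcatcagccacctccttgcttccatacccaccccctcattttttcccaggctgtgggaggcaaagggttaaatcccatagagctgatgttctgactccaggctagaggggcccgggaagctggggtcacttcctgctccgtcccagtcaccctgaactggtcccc
Zfp111: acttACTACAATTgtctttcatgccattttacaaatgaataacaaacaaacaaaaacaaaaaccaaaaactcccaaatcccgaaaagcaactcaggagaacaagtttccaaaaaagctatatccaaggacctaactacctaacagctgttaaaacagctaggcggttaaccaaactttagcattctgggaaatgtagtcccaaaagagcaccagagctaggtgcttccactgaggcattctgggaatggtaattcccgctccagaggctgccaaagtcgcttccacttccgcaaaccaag
Zfp281: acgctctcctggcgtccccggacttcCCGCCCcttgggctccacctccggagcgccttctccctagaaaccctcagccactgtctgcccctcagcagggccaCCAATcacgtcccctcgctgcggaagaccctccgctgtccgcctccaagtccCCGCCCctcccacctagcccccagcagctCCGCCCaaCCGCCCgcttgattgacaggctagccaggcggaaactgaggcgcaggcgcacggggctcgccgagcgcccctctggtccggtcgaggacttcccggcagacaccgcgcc
Zfp622: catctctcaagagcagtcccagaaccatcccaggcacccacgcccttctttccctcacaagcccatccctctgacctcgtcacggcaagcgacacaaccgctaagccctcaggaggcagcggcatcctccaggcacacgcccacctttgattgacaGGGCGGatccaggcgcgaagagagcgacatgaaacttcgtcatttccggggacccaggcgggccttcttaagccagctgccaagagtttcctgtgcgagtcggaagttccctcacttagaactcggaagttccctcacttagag
Zfp472: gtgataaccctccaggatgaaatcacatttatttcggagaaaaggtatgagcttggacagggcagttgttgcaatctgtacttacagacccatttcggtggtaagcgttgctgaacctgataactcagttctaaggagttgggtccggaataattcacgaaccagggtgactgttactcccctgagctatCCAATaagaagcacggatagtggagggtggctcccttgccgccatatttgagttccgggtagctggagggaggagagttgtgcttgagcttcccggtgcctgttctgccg

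Across the 152 members matched in the RefSeq promoter table, 56.6% held GGGCGG, beside 71.0% of 7715 protein-coding genes of the same mean count and 38.2% of all 27025 genes in the table. The GC box was in 42.9% of 77 KRAB members and in 70.7% of 75 members with no match. It was in 19 of 42 members that rose and in 15 of 21 that fell. CCAAT was in 52.6% of members, beside 43.5% of the protein-coding genes of the same count and 41.1% of all genes. ACTACAATT was found in 5 members (3.29%), beside 0.959% and 0.448%. The palindrome TGACGTCA was in 4.61% of members (3.75% and 2.03% of the others), the AP-1 motif TGANTCA in 5.26% (5.65% and 8.97%) and the E-box CACGTG in 9.87% (12.6% and 8.09%). No motif searched contains another, and a match is a run of letters, not a bound site.

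Outside the KRAB class, the largest change in the whole family was that of Zfp366, known as DC-SCRIPT, a co-repressor of nuclear receptors described in dendritic cells. It had 5.64, 5.39 and 5.69 CPM with saline and 22.0, 22.6 and 22.2 CPM with carnosine. The libraries of each group were almost equal, and the groups lay far apart. Its log2 fold change was 2.0 ± 0.07 (SE, n = 3 and 3), with an adjusted p of 1.9e-06 in edgeR's quasi-likelihood test with Benjamini-Hochberg adjustment. Zfp629 had 9.15, 13.4 and 9.75 CPM with saline and 17.7, 19.8 and 25.9 CPM with carnosine, a log2 fold change of 0.97 ± 0.19. Its libraries were more spread, but the groups did not overlap.

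**Figure D2:**
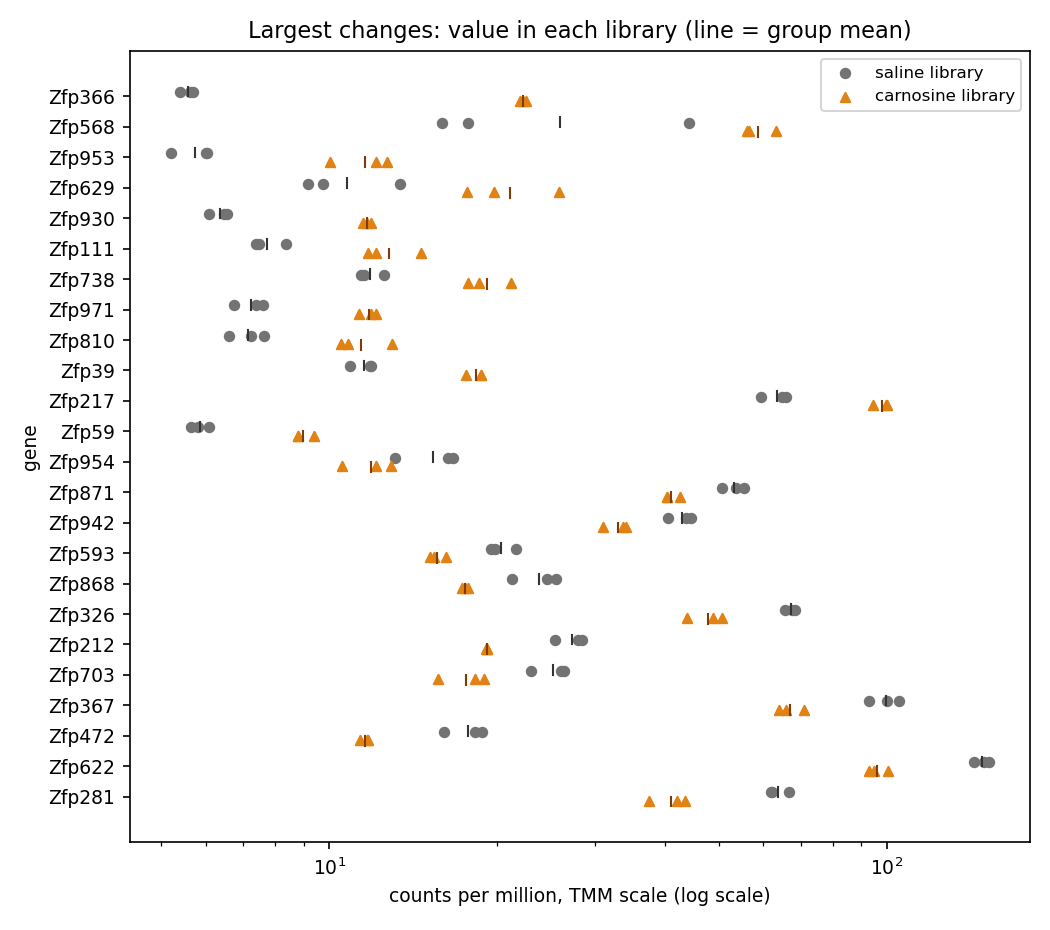
Level in each library (x axis, CPM on a log scale) of the 12 members with the largest rises and the 12 with the largest falls among those called and with no overlap between groups, ordered from the largest rise to the largest fall. Grey dots are saline libraries, orange triangles carnosine libraries and short lines group means. Zfp366 separates the groups most widely, and Zfp568 has 1 saline library near its carnosine libraries.

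Among members with roles in transcription and chromatin, 19 of 21 listed genes were members, and 3 rose and 3 fell, with a median log2 fold change of -0.03. Each direction thus held 15.8% of the 19, beside 23.3% higher and 20.9% lower among protein-coding genes of the same mean count. Zfp217, a part of co-repressor complexes that is amplified in breast cancer, had 64.9, 59.4 and 65.9 CPM with saline and 99.9, 94.3 and 99.5 CPM with carnosine. All carnosine libraries lay above the saline range, and the log2 fold change was 0.63 ± 0.05 (edgeR's quasi-likelihood test with Benjamini-Hochberg adjustment, adjusted p = 0.00011). Zfp281, a transcription factor studied in embryonic stem cells, moved the other way. It had 62.0, 62.2 and 66.9 CPM with saline and 42.0, 43.4 and 37.5 CPM with carnosine, a log2 fold change of -0.64 ± 0.07 with no overlap. Zfp516, an activator of brown fat genes, rose from 27.5, 25 and 25.3 CPM to 38.6, 36.3 and 39.6 CPM. Zfp143, which binds the promoters of small nuclear RNA genes and many coding genes, rose from 23.2, 21.4 and 20.7 CPM to 31.1, 29.2 and 31.2 CPM. Zfp703 (-0.51) and Zfp592 (-0.21) were lower. Among the 13 not called was Zfp292, whose libraries disagreed within the saline group.

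Of the 9 members listed for RNA and ribosome roles, 4 fell (44.4%), none rose and 5 did not pass. Their median log2 fold change was -0.15, and their median level was 14.4 FPKM. Protein-coding genes of the same mean count were lower in 20.9% and higher in 23.3%. In the highest of 3 equal classes of mean FPKM, 13 of 42 members with no KRAB match fell and 4 rose. Zfp622, which acts in the last steps of assembly of the large ribosomal subunit, had 149, 152 and 144 CPM with saline and 94.6, 92.9 and 100.4 CPM with carnosine. The carnosine libraries were all far below the saline libraries, and the log2 fold change was -0.63 ± 0.04 (edgeR's quasi-likelihood test with Benjamini-Hochberg adjustment, adjusted p = 3.6e-05). Zfp326, a partner of RNA polymerase II in splicing control, fell from 65.6, 68.5 and 67.5 CPM to 48.7, 50.6 and 43.8 CPM. Zfp593, also an assembly factor of the large subunit, fell from 21.6, 19.8 and 19.5 CPM to 15.4, 15.1 and 16.2 CPM, and it overlaps E130218I03Rik on the opposite strand. Zfp598, the ubiquitin ligase that marks collided ribosomes, fell by 0.16 on the log2 scale, from 135, 135 and 131 CPM to 114, 121 and 124 CPM. The call on Zfp598 was lost in 6 of 15 alternative settings, among them without saline replicate 1 or 2 (adjusted p = 0.055 and 0.051 in edgeR's quasi-likelihood test with Benjamini-Hochberg adjustment).

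The 4 members listed for immune cells gave 1 gene in each direction. Beside them, protein-coding genes of the same mean count were higher in 23.3% and lower in 20.9%. Zfp91, a ubiquitin ligase of the non-canonical NF-kB pathway, had 314, 318 and 316 CPM with saline and 248, 245 and 249 CPM with carnosine. The libraries within each group were nearly equal, and the log2 fold change was -0.35 ± 0.02 (edgeR's quasi-likelihood test with Benjamini-Hochberg adjustment, adjusted p = 2.7e-05). Zfp35 rose from 56.7, 61.1 and 57.4 CPM to 71.7, 71.1 and 66.0 CPM. Zfp335 (-0.07) and Zfp318 did not pass. Zfp367, on no list, fell from 100.1, 105 and 92.9 CPM to 65.9, 71.1 and 63.9 CPM.

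Of 6 genes listed for silencing of repeats and imprinting, 4 were members and all 4 carry a KRAB box. Of these, 3 rose and Zfp809, which silences retroviruses, did not pass (16.9 ± 1.0 CPM over the 3 saline libraries and 15.6 ± 1.45 CPM over the 3 carnosine libraries, mean and SD). Over all 89 KRAB members 40.4% rose, and over protein-coding genes of the same mean count 23.3%. Zfp445, which protects imprinted methylation, had 80.9, 82.1 and 82.5 CPM with saline and 105, 102 and 109 CPM with carnosine. The groups stood apart, with a log2 fold change of 0.36 ± 0.04 (edgeR's quasi-likelihood test with Benjamini-Hochberg adjustment, adjusted p = 0.0003). Zfp568, which represses a placental transcript of Igf2, had 15.9, 17.7 and 44.1 CPM with saline and 56.2, 56.6 and 63.2 CPM with carnosine. Saline replicate 3 thus lay nearer to the carnosine libraries than to the other saline libraries. The log2 fold change of Zfp568 was 1.19 ± 0.36 with an adjusted p of 0.034, and in edgeR's quasi-likelihood test with Benjamini-Hochberg adjustment it was 1.8 with an adjusted p of 4.7e-05 without saline replicate 3. Leaving out saline replicate 1 or 2, or any of the carnosine replicates, ended the call of Zfp568, with log2 fold changes from 0.94 to 1.22 and adjusted p-values from 0.069 to 0.098 in the same test. Zfp932, which binds retrotransposons, was higher by 0.29, but 45.2% of its 50-base words occur in other genes, and 8 of 15 alternative settings lost the call. Leaving out saline replicate 2 or 3 or carnosine replicate 2 or 3 gave Zfp932 an adjusted p of 0.087 to 0.092 in edgeR's quasi-likelihood test with Benjamini-Hochberg adjustment.

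Members lay on 19 chromosomes, with 44 on chromosome 7 and 23 on chromosome 17. A cluster was taken as a run of at least 3 members on a chromosome with gaps of at most 1 Mb between neighbours, on the positions of the deposited table (GRCm38). This gave 20 clusters on 11 chromosomes with 99 members, and 8 of these clusters, with 38 members, lay on chromosome 7. Of the 99 clustered members 37 rose (37.4%) and 9 fell (9.09%), with a median log2 fold change of 0.19. Of the 91 members outside clusters 16 rose (17.6%) and 15 fell (16.5%), with a median of 0.02. Protein-coding genes of the same mean count were higher in 23.3% and lower in 20.9%, also with a median of 0.02. The KRAB box and clustering went together, since 68 of the 89 KRAB members lay in clusters. KRAB members outside clusters gave 6 higher and 1 lower of 21 (median 0.15), and members with no match in clusters 7 higher and 2 lower of 31 (median 0.13). The 70 members with no match outside clusters had 10 higher and 14 lower, with a median of -0.03.

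**Figure D3:**
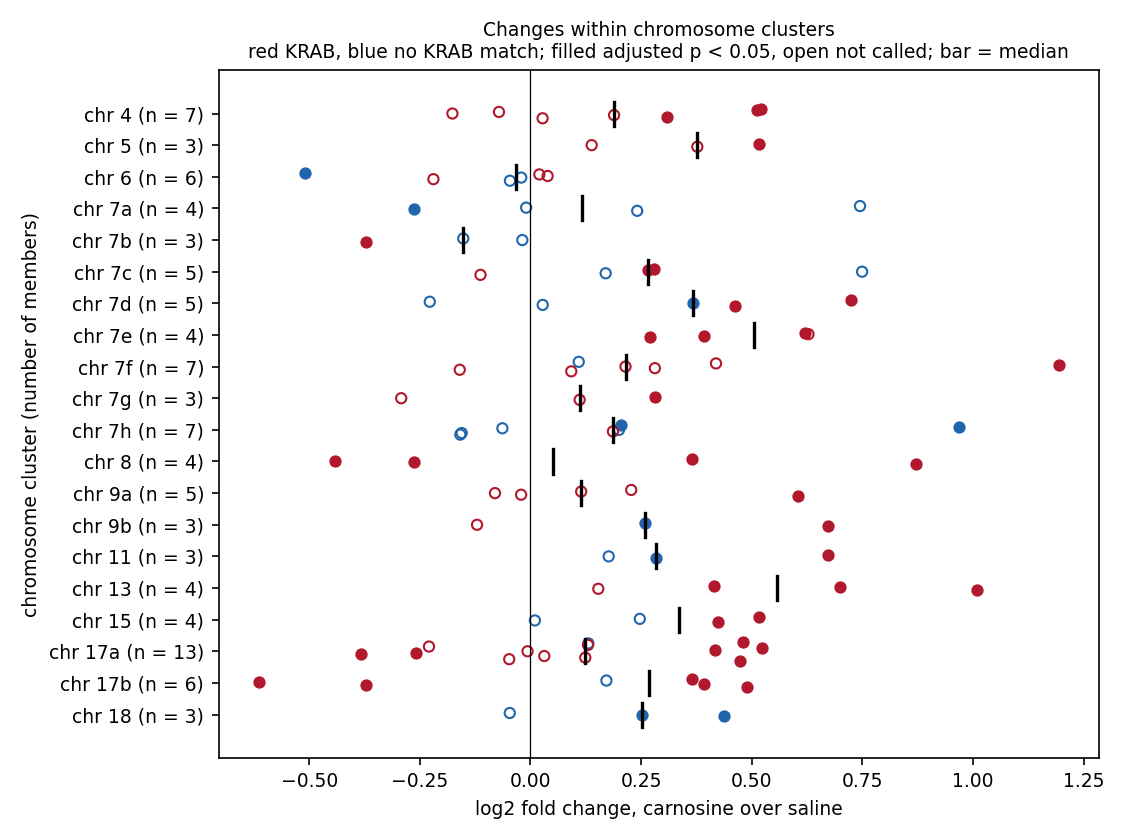
Log2 fold change of carnosine over saline (x axis) of each member in the 20 chromosome clusters (y axis, with the number of members). Red marks KRAB members, blue members with no KRAB match, filled symbols an adjusted p below 0.05, open symbols members not called, and black bars the cluster medians. The medians of 18 clusters lie above 0, and those of clusters 6 and 7b lie below.

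Rises were spread over the clusters. In 14 clusters the only calls were higher, in 3 the only calls were lower and in 3 there were both. The clusters hold 3 to 13 members each, and some of them rest on 1 call. The cluster on chromosome 13 (chr13:67339306-67729173) had the highest median, 0.56, with 3 of its 4 KRAB members higher: Zfp953, Zfp738 and Zfp65 (0.42). Its other member, Zfp748, had 9.32 ± 0.956 CPM over the 3 saline libraries and 10.4 ± 1.29 CPM over the 3 carnosine libraries (mean and SD) and did not pass. The cluster at chr7:27731389-28014115 came next with a median of 0.51. There the KRAB members Zfp59, Zfp626 (0.39) and Zfp850 (0.27) rose, while Zfp60 had 10.4, 9.54 and 5.77 CPM with saline and 15.4, 8.87 and 16.0 CPM with carnosine and did not pass. Another KRAB-rich run at chr4:146449023-147848366 had 7 members, of which Zfp992 (0.31), Zfp979 (0.51) and Zfp933 (0.52) rose. In that run 86.8% of the 50-base words of Zfp993 and 87.0% of those of Zfp991 occur in other genes, and neither passed. Leaving out any library but carnosine replicate 1 ended the call on Zfp65 (adjusted p of 0.055 to 0.096 in edgeR's quasi-likelihood test with Benjamini-Hochberg adjustment), and any but carnosine replicate 2 that on Zfp850 (0.054 to 0.12). DESeq2's Wald test lost the call on Zfp626 (Benjamini-Hochberg adjusted p = 0.088).

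Neighbours did not always move the same way. The cluster at chr8:69209038-69791178 holds 4 KRAB members, all of them called. Zfp930 and Zfp866 (0.37) rose, and Zfp868 (-0.44) and Zfp869 (-0.26) fell. Zfp869 had 30.4, 29.6 and 28.5 CPM with saline and 23.9, 25.4 and 24.4 CPM with carnosine, with no overlap. DESeq2's Wald test lost the calls on Zfp866 and Zfp869 (Benjamini-Hochberg adjusted p = 0.055 and 0.060), and the other 14 alternatives kept both. The largest cluster, at chr17:21008941-23564226, has 13 members, 12 of them with a KRAB box. In it Zfp52 (0.52), Zfp160 (0.48), Zfp994 (0.47) and Zfp53 (0.42) rose, and Zfp942 and Zfp820 (-0.26) fell. In the cluster at chr17:32771236-33631779, Zfp952 (0.49), Zfp81 (0.39) and Zfp101 (0.36) rose, and Zfp472 and Zfp871 fell. Words shared with other genes made up 8.99% for Zfp942, 3.19% for Zfp820, 0.25% for Zfp871 and 0% for Zfp472. The call on Zfp820 was lost without any library but carnosine replicate 1 (adjusted p of 0.076 to 0.12 in edgeR's quasi-likelihood test with Benjamini-Hochberg adjustment). Without saline replicate 1 or carnosine replicate 1 or 2, Zfp53 had an adjusted p of 0.054 to 0.055, and without saline replicate 2 or 3 or carnosine replicate 1, Zfp952 had 0.050 to 0.051 in the same edgeR test.

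The clusters with only lower calls had 1 such call each. On chromosome 6 (chr6:47835661-48086593, 6 members, median -0.03) Zfp212 fell from 27.9, 28.4 and 25.4 CPM to 19.2, 19.2 and 19.1 CPM. It has no KRAB match by the pattern used. On chromosome 7, Zfp628 (-0.26) was the only call among the 4 members at chr7:4915217-5036768, none with a KRAB match, and Zfp954 the only one of 3 at chr7:6131491-7121488. With GC content and length corrected, the call on Zfp628 was lost (log2 fold change -0.16, adjusted p = 0.088 in edgeR's quasi-likelihood test with Benjamini-Hochberg adjustment, over a range of 0.0052 to 0.088 for all alternatives). The run at chr7:29768552-30169750 has 7 members, and its only call was Zfp568. On chromosome 18, Zfp397 rose from 34.5, 34.2 and 34.4 CPM to 48.8, 45.8 and 44.9 CPM beside Zfp35, and their neighbour Zfp24 did not pass. In other clusters the members with the smallest p were Zfp251 (0.52), Zfp113 (0.52), Zfp141 (0.28) and Zfp110 (0.28), all higher with carnosine. The call on Zfp110 was lost without saline replicate 1 or 2 or carnosine replicate 2 or 3 (adjusted p of 0.055 to 0.067 in edgeR's quasi-likelihood test with Benjamini-Hochberg adjustment).

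Levels were compared per transcript length, in FPKM. The members' mean FPKM over the libraries ran from 0.423 for Zfp846 to 38.4 for Zfp598, with a median of 3.09. Of the 190 members, 12 were below 1 FPKM and 19 above 10 FPKM, and the 10 highest carried 26.2% of the summed FPKM. The order at the top was Zfp598, Zfp706 (30.9), Zfp106 (29.7), Zfp207 (28.2), Zfp91 (26.2) and Zfp35 (21.1). None of these 6 has a KRAB match, and 3 of the 20 highest members do. Zfp706, Zfp106, a protein that binds repeat RNA, and Zfp207, which acts in spindle assembly, lay within a few FPKM of each other. Their libraries overlapped, with 29.4 to 32.3 FPKM for Zfp706, 26.8 to 31.9 FPKM for Zfp106 and 27.4 to 29.2 FPKM for Zfp207, and none of the 3 was called.

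Most of the members that fell, 18 of 24, were among the more highly expressed. In the highest of 3 equal classes of mean FPKM (63 members, 4.50 to 38.4 FPKM), 11 rose and 18 fell, with a median log2 fold change of -0.05. Protein-coding genes of the same mean count in that FPKM range were higher in 23.3% and lower in 21.9%. In the middle class (64 members, 2.20 to 4.50 FPKM), 23 rose and 6 fell, with a median of 0.08, beside 25.4% higher and 14.6% lower. In the lowest class (63 members, 0.423 to 2.18 FPKM), 19 rose and none fell, with a median of 0.23, beside 24.5% higher and 14.3% lower. The KRAB box and the level were related, since 41 of the 63 members of the lowest class have a KRAB match and 21 of the 63 in the highest. Within the highest class, KRAB members had 7 higher and 5 lower of 21, and the others 4 higher and 13 lower of 42. Within the lowest class, KRAB members had 17 higher of 41 and the others 2 higher of 22. Across the 190 members Spearman's rho of the log2 fold change with mean FPKM was -0.38, and across the 9661 protein-coding genes of the same mean count it was -0.15. These are correlations across genes that share the same libraries, given as descriptions.

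**Figure D4:**
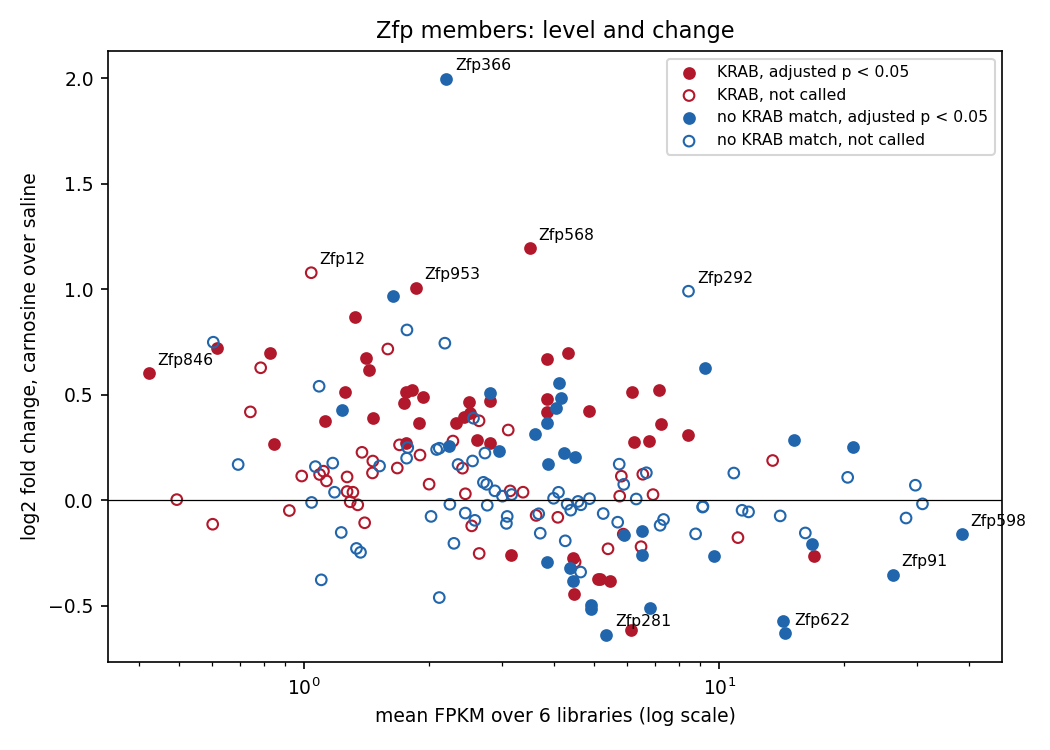
Log2 fold change of carnosine over saline (y axis) against mean FPKM over the 6 libraries (x axis, log scale) for the 190 members. Red marks KRAB members and blue members with no KRAB match, with filled symbols for an adjusted p below 0.05 and open symbols for members not called. No filled symbol lies below 0 among members under 2.18 FPKM, and most filled symbols above 10 FPKM lie below 0.

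Genes listed as KRAB partners, a broad list of co-repressor and chromatin genes, changed in both directions. Of 27 listed genes, all tested, 9 rose (33.3%) and 4 fell (14.8%), with a median log2 fold change of 0.04. Among the protein-coding genes whose mean count reached 100, 23.3% were higher and 20.9% lower, with a median of 0.02. Fam208a, the HUSH complex scaffold TASOR, had 26.1 CPM in each saline library and 41.4, 40.3 and 45.0 CPM with carnosine. The rise was 0.69 ± 0.06 on the log2 scale (edgeR's quasi-likelihood test with Benjamini-Hochberg adjustment, adjusted p = 0.00013). Mphosph8, the HUSH reader of methylated H3 lysine 9, rose by 0.42, Morc3 by 0.44, and Cbx5, which encodes HP1 alpha, by 0.29. Trim28 itself had 632, 626 and 632 CPM with saline and 489, 596 and 539 CPM with carnosine. Its log2 fold change was -0.22 ± 0.06, the carnosine libraries were widely spread, and 7 of 15 alternative settings lost the call. Without any of the saline replicates or carnosine replicate 3, Trim28 had an adjusted p of 0.071 to 0.081 in edgeR's quasi-likelihood test with Benjamini-Hochberg adjustment. Chd3, a remodeller of the NuRD complex, fell from 274, 267 and 273 CPM to 219, 221 and 215 CPM. Trim33 had a log2 fold change of -0.27, a call that 9 of 15 alternative settings lost, with an adjusted p of 0.062 to 0.11 in the same edgeR test without any of the saline replicates or carnosine replicate 1. Setdb1 rose by 0.16.

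In 9 members the libraries of 1 group lay more than 2-fold apart. Zfp292 had 135, 18.7 and 19.9 CPM with saline and 121, 114 and 113 CPM with carnosine. Saline replicate 1 lay with the carnosine libraries, and the log2 fold change of 0.99 ± 0.70 did not pass. Zfp292 was called in 1 of 15 alternative settings. Zfp62 had 26.3, 23.3 and 23.2 CPM with saline and 53.1, 65.4 and 8.88 CPM with carnosine, with carnosine replicate 3 below every saline library. Zfp12, at 8.85, 10.3 and 10.3 CPM with saline, had 8.48, 29.2 and 24.6 CPM with carnosine. Zfp46 varied in both groups, with 4.55, 17.3 and 3.74 CPM and 19.7, 3.96 and 2.70 CPM, as did Zfp180. The library that stood apart was not the same from gene to gene. Zfp568 was the only one of the 9 that was called, and the 181 others gave 52 higher and 24 lower with a median log2 fold change of 0.08, a count added after the data were seen.

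**Figure D5:**
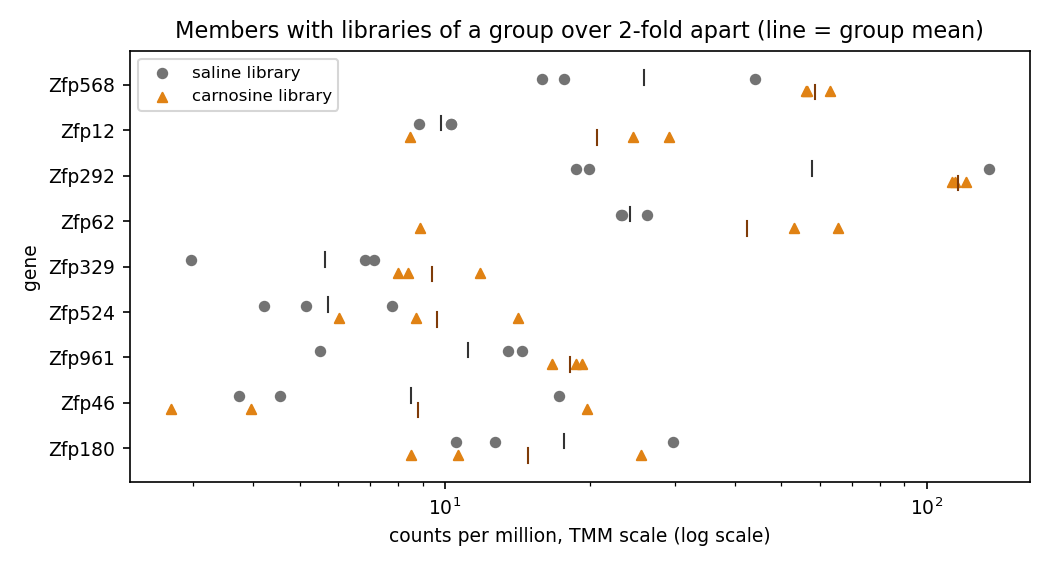
Level in each library (x axis, CPM on a log scale) of the 9 members whose libraries lay more than 2-fold apart within a group. Grey dots are saline libraries, orange triangles carnosine libraries and short lines group means. In Zfp292, saline replicate 1 lies with the carnosine libraries, and in Zfp62, carnosine replicate 3 lies below the saline libraries.

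Shared sequence was unevenly spread over the members. No 50-base word of the longest coding transcript recurred in another gene for 88 members, and more than 5% of the words did so for 36 members, 13 of them called higher and 3 called lower. Opposite-strand overlap with another tested gene was found for 33 members, and the sources used here do not give whether counting used strand. The genes at the edge of the choice had levels close to the limit. Just inside the mean count of 100 lay Zfp689 (mean count 101.0), Zfp59 (104.0), Zfp329 (104.0) and Zfp846 (106.0), with log2 fold changes of 0.19, 0.62, 0.75 and 0.60, of which Zfp59 and Zfp846 passed the test. Just outside lay Zfp709 (99.7), Zfp747 (99), Zfp946 (99) and Zfp799 (98.2), with log2 fold changes of 0.60, -0.55, 0.09 and 0.74, and all but Zfp946 passed.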

How the data were processed

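RNA of sorted LT-HSCs was sequenced as poly-A selected, stranded, paired-end libraries, per the labels' protocols. The submitters' processing notes name CASAVA 1.8, HISAT2, StringTie, edgeR and GRCm38, with no role or order. The authors deposited 1 table with a raw count and an FPKM value per gene and library. The counts are whole and not normalized. The deposited FPKM values scale those counts by transcript length and total, and the implied length was the same in all libraries, within 1%, for each of the 190 members.

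The counts of all 6 libraries were filtered (filterByExpr), scaled by TMM and tested with edgeR 4.0.16 (glmQLFit and glmQLFTest, R 4.3.3) as carnosine against saline, with Benjamini-Hochberg adjustment over all 15533 genes and a threshold of 0.05. The script was tested on simulated counts. CPM values use the TMM library sizes. Alternatives were other scalings and filters, DESeq2 1.42.0, limma 3.58.1 on log2 FPKM with a pseudocount of 1 or 0.1, a replicate block and leaving out each library; corrections for GC content and length were added after the data were seen.

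KRAB boxes and fingers were searched by pattern in coding sequences translated from the GENCODE M21 annotation; RefSeq proteins, named in the design, were not used here. Repeated sequence was scored over the 50-base words of the longest coding transcript. Members named in the text were the 12 largest called changes in each direction without overlap, the 6 highest by FPKM, the smallest p in each cluster, up to 3 per role list and 4 per direction among the KRAB partners, and the 4 genes on either side of the mean count of 100. Others, such as the further members of a cluster and the variable members, were named after their values were seen. The members and the lists were chosen with earlier results of these data known. The values of 1 gene of the KRAB partner list are not reported here.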

Additional observations from a re-analysis of the deposited data

How the results depend on the processing

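Over the 15 alternatives tested, 44 members were called in every one. Of 109 genes followed, all of the called members among them, 88 were called, 55 kept their call wherever they were tested, 33 lost it in at least 1 alternative and none of the 88 changed sign. Of the named genes not called, Zfp706 turned to 0.040 and 0.041 on FPKM with a pseudocount of 1 and 0.1, Zfp335 to 0.032 with GC and length corrected, and Zfp946 to -0.013 without saline replicate 2. Zfp24 turned to 0.010 and 0.011 on FPKM, Zfp993 to -0.013 with GC and length corrected, and Zfp46 to -0.070 with the replicate block. Leaving out 1 library put Zfp993 between -0.023 and 0.096, Zfp46 between -1.36 and 1.08 and Zfp180 between -0.87 and 0.35. Some genes not called in the main test gained a call. Zfp12, Zfp60, Zfp62, Zfp106, Zfp207, Zfp292 and Zfp961 did so in 1 alternative each, Zfp524 in 2 and Zfp991 in 3. DESeq2's Wald test called 37 members higher and 17 lower, among them 27 and 5 KRAB members and 10 and 12 with no KRAB match. On log2(FPKM + 1), 5 KRAB members were lower, with medians of 0.17 for KRAB members and 0.042 for the rest, and on log2(FPKM + 0.1) the medians were 0.13 for all members and 0.050 for those with no match. With GC and length corrected, the median with no match was 0.036. The median over all members was 0.074 among those sharing at most 5% of words and 0.077 among those with libraries at most 2-fold apart. Leaving out 1 library gave 42 to 49 members higher and 18 to 23 lower (median 0.09 to 0.11), 28 to 34 and 6 to 9 of the KRAB members (median 0.19 to 0.25), and 12 to 15 and 12 to 16 of the rest (median -0.01 to 0.01). Same-numbered libraries deviated together by correlations of 0.01, 0.03 and 0.02, too little to pair them, although each library correlated best with its own number. A replicate block gave 46 members higher and 22 lower. Counting error limits the members near a mean count of 100.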
